A study of Mus musculus with 6 samples.

Results

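Autophagy and lysosome genes were followed in stimulated CD8 T cells through 35 genes chosen by name, which are 35 of the 49492 gene rows in the count table. All 35 were found, and all passed the filter on low counts that left 15186 genes to test. They cover the start of autophagy, the conjugation machinery, the cargo receptors, the TFEB and TFE3 transcription factors and 3 proteins of the lysosomal membrane. The rule is a list of names and contains no measured value.

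RNA was sequenced from CD8 T cells isolated as naive cells from spleens of C57/BL6 OT-I mice aged 6 to 8 weeks. OT-I mice carry a transgenic T cell receptor against an ovalbumin peptide, so all libraries share it. Replicates 1 to 3 (WT) are from Wild Type-OT-I animals, and replicates 4 to 6 (KO) are from NIK-CD4Cre-OT-I animals. NIK, encoded by Map3k14, is the kinase that starts noncanonical NF-kB signalling, and Cre driven from Cd4 is generally active from thymic development on. All cells, WT and KO, were stimulated for 24 hours through plate-bound anti-CD3 at 1 µg/ml and soluble anti-CD28 at 1 µg/ml, and no unstimulated cells were compared. Whether the 3 libraries of a group are 3 mice is not stated, and the p-values below reflect only the spread among these libraries. Xist and Y-linked counts place both sexes in each group, so each holds at least 2 animals, and part of the spread may still be technical.

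Macroautophagy encloses cytoplasm in a double membrane that fuses with lysosomes. The ULK kinase complex starts it, a class III PI3 kinase complex marks the growing membrane with PI3P, and a pair of ubiquitin-like conjugation systems attaches ATG8 proteins (LC3 and GABARAP) to it. Cargo receptors tether ubiquitinated material to ATG8 proteins. TFEB and TFE3 switch on lysosomal and autophagy genes when mTORC1 activity is low, and activated T cells use autophagy for protein turnover and survival.

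Total counts ran from 41311346 to 47851445 per library, and the floor of 3 counts lay between 0.0627 and 0.0722 CPM (count per 1e6 after TMM scaling), for counting error only. The T cell markers Cd3d, Cd3e, Cd3g, Cd247, Trac, Cd2, Cd5 and Lck summed to 1743 to 1842 CPM in the WT libraries and 1752 to 1906 CPM in the KO libraries, and Cd8a and Cd8b1 together to 768 to 870 CPM and 834 to 879 CPM. The 7 B cell markers summed to 338.0 to 394.4 CPM (WT) and 331.2 to 360.0 CPM (KO), of which Ighm made up 304.5 to 311.7 CPM and 291.0 to 326.6 CPM; the 6 without it summed to 26.4 to 84.7 CPM and 31.9 to 44.3 CPM. The estimates of all 7 were below 0 (median log2 fold -0.69), and the smallest unadjusted edgeR p among them was 0.13. The 8 macrophage and monocyte markers summed to 6.39 to 10.5 CPM (WT) and 8.86 to 16.5 CPM (KO). Erythroid, platelet and neutrophil lists stayed at or under 0.500 CPM in every library, and the dendritic marker Cd209a and the neutrophil marker Elane had no counts. NK markers summed to 0.401 to 1.21 CPM (WT) and 0.188 to 0.337 CPM (KO), dendritic markers to 9.33 to 13.3 CPM and 11.5 to 14.1 CPM, and CD4 and regulatory markers to 11.3 to 26.0 CPM and 9.86 to 15.1 CPM. The targeted gene Map3k14 measured 53.6, 65.5 and 65.3 CPM (WT) and 50.7, 64.5 and 54.7 CPM (KO). These ranges overlap, with KO replicate 5 among the high WT libraries, so the count over the whole gene does not check the labels. Below, WT and KO are the labels of the libraries, and loss of NIK was not measured.

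The comparison asks how transcripts of the autophagy and lysosome machinery differ between stimulated CD8 cells labelled WT and those labelled KO for NIK. None of the 35 genes was called different. EdgeR's quasi-likelihood test called 0 at an adjusted p under 0.05 over all tested genes, where 0.00659% of all genes were called. At an unadjusted p under 0.05 it counted 0 of 35, beside 7.26% of all tested genes. DESeq2 also called 0, with 0 at an unadjusted p under 0.05, beside 0.599% and 6.99% of all tested genes. Estimates were split, with 17 above 0 and 18 below 0, and the median log2 fold (KO over WT) was -0.0068, beside 0.0071 over all tested genes. The smallest adjusted p was 0.70.

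The intervals were narrow for most of the machinery. For 27 of the 35 genes the 95% interval of the fold lay within 1.25-fold in either direction, and for 32 within 1.5-fold. Over all tested genes these shares were 44.6% and 64.4%. Genes at 10 CPM or more gave tighter intervals in general. Of the 30 members at that level, 27 lay within 1.25-fold and all 30 within 1.5-fold, beside 75.2% and 93.3% of the 8653 tested genes at that level. The 3 genes whose intervals reached past 1.5-fold were Wipi1 (fold 0.362 to 1.14), Map1lc3a (0.646 to 1.41) and Optn (0.855 to 1.55). These were also the 3 lowest genes of the 35 in CPM.

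**Figure D1:**
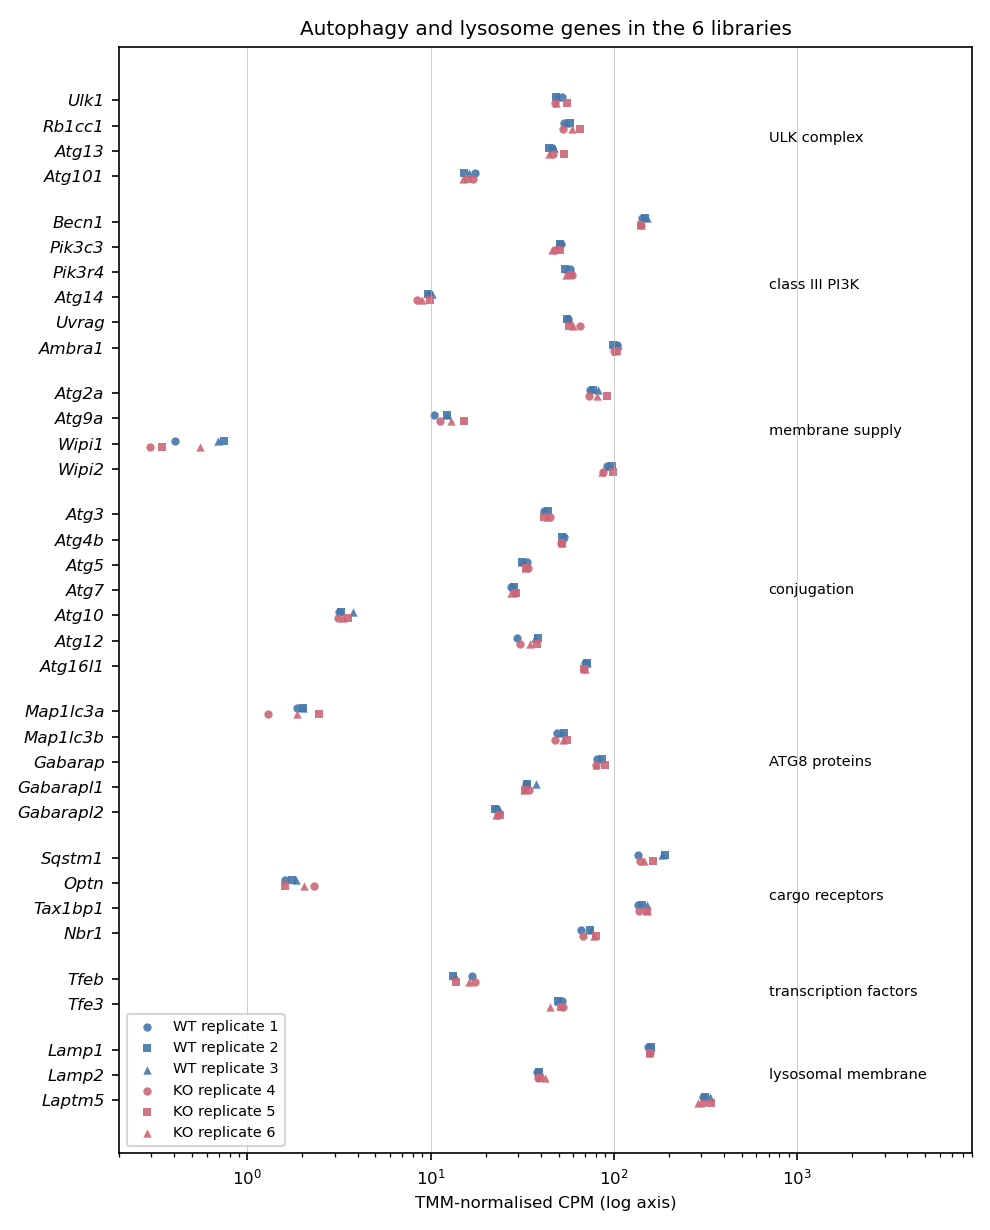
Normalised CPM (log axis) of the 35 genes, ordered by role, in the 3 WT libraries (blue) and 3 KO libraries (red); each point is 1 library. The groups lie on top of each other for nearly all genes, and Wipi1, Map1lc3a, Optn and Atg10 are the only genes with a mean under 5 CPM over the 6 libraries.

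**Figure D2:**
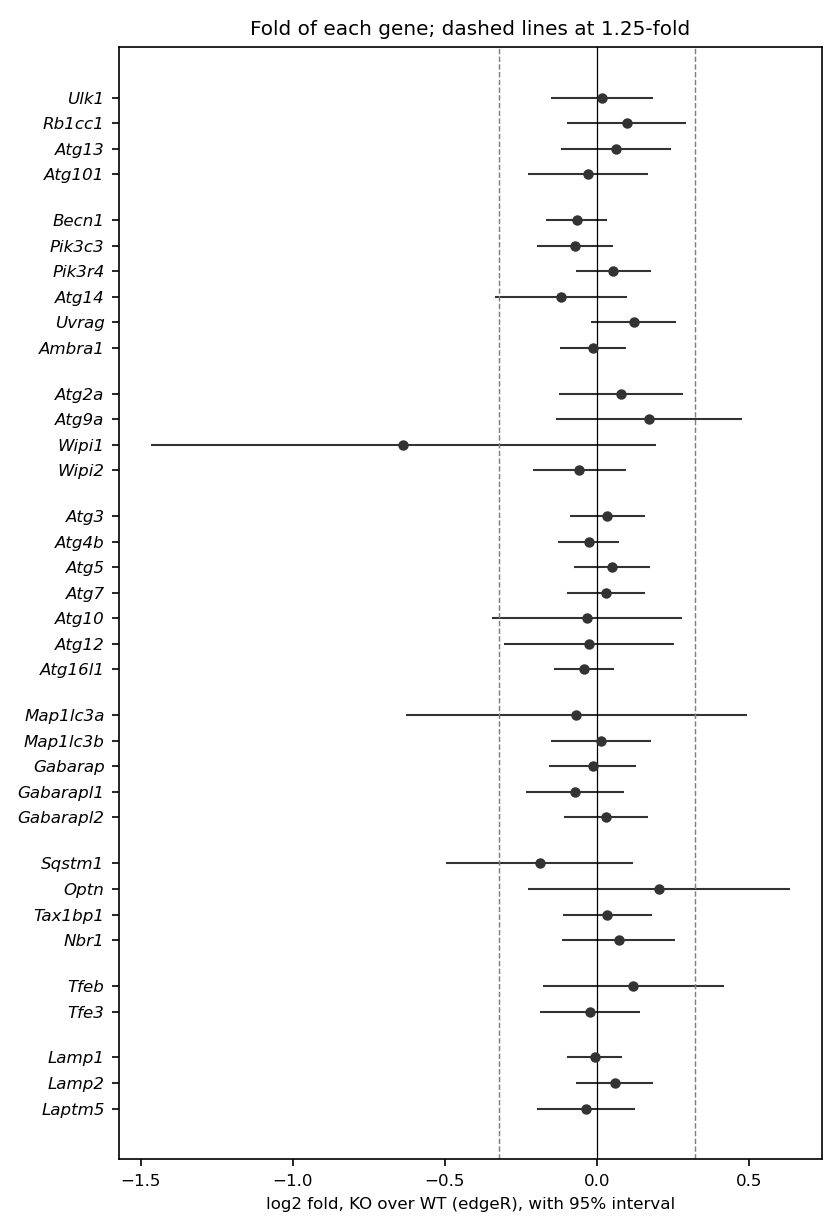
Log2 fold, KO over WT, of each gene with its 95% interval from edgeR; dashed lines mark 1.25-fold. All 35 intervals include 0, and 27 lie within the dashed lines.

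Levels of different genes were compared per kilobase of merged exons. On this scale 2 of the 3 lysosomal membrane genes led: Laptm5 had a level of 84.2 CPM per kb and Lamp1 one of 58.9 CPM per kb in the WT libraries, while Lamp2 had one of 4.03 CPM per kb. The cargo receptor Sqstm1 (50.6 CPM per kb) and the ATG8 protein Gabarap (45.4 CPM per kb) came next, and Becn1 followed at 20.9 CPM per kb. At the other end were Optn (0.461 CPM per kb) and Wipi1 (0.139 CPM per kb). Merged exons include those of rarely used transcripts, which lowers the level per kb of genes with long alternative exons. Per kilobase of the principal transcript, a length chosen after seeing the data, the order was Laptm5 (122.7 CPM per kb), Sqstm1 (83.3), Lamp1 (70.7), Gabarap (62.0), Wipi2 (48.1), Tax1bp1 (43.5) and Becn1 (33.8). On that scale Sqstm1 passed Lamp1, and Wipi2, at 8.94 CPM per kb of merged exons, passed Becn1. The counts cover all exons of a gene, so dividing by a single transcript can raise the level of genes with reads outside it. Wipi2 has 10543 merged and 1959 principal bases, and its place depends on the length used.

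The ULK complex consists of the kinase ULK1, the scaffold FIP200 (encoded by Rb1cc1), ATG13 and ATG101. Ulk1 stood at 52.3, 48.6 and 49.2 CPM in the WT libraries (replicates 1 to 3) and at 47.9, 55.7 and 48.3 CPM in the KO libraries (replicates 4 to 6). The KO range enclosed the WT range, and the log2 fold was 0.017 (SE 0.072; edgeR adjusted p = 0.96). Rb1cc1 had the smallest p of the complex, with 53.4, 57.6 and 55.1 CPM (WT) and 52.6, 65.6 and 59.4 CPM (KO). KO replicate 4 was the lowest of the 6 libraries and KO replicate 5 the highest, so the groups overlap (log2 fold 0.097, SE 0.083; edgeR adjusted p = 0.79). Without KO replicate 4 its log2 fold was 0.18 (unadjusted p = 0.031, edgeR adjusted p = 0.46). In that fit 9.58% of all tested genes and 1 of the 35 were at an unadjusted edgeR p under 0.05. Without KO replicate 5 its log2 fold was 0.017. Atg13 (log2 fold 0.063) and Atg101 (log2 fold -0.029), which hold the complex together, also overlapped between the groups.

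The class III PI3 kinase genes include the only 2 of the 35 whose groups did not overlap, and these lay on opposite sides. Non-overlap was seen for 1 gene with KO higher and 1 with KO lower, beside 6.68% and 6.07% of all tested genes. Uvrag encodes a Beclin 1 partner that acts in endosome and autophagosome maturation, at chr7:98885021-99141141 (mm10, minus strand). It stood at 56.3, 55.5 and 56.6 CPM (WT) and 65.6, 57.3 and 60.1 CPM (KO). KO replicate 4 was well above the rest and KO replicate 5 just above the WT libraries. The log2 fold was 0.12 (SE 0.059; edgeR adjusted p = 0.70), and without KO replicate 4 it was 0.065 (edgeR adjusted p = 0.71). Without KO replicate 5 it was 0.16 (unadjusted p = 0.029, edgeR adjusted p = 0.80). In that fit 6.1% of all tested genes and 1 of the 35 were at an unadjusted edgeR p under 0.05. Becn1, at chr11:101285952-101302286 (minus strand), encodes Beclin 1, the scaffold of the complex. It stood at 142.0, 148.5 and 152.2 CPM (WT) and 140.1, 141.2 and 141.4 CPM (KO). WT replicate 1 lay only just above the highest KO library, and the log2 fold was -0.067 (SE 0.043; edgeR adjusted p = 0.74).

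The other 4 class III PI3 kinase genes, which need not all act in the same complex, overlapped between the groups. Pik3c3, the lipid kinase VPS34, had a log2 fold of -0.072 (SE 0.053), and Pik3r4, its regulatory subunit VPS15, one of 0.054 (SE 0.052). Atg14, which directs the kinase to autophagosome formation, was the lowest of the class III PI3 kinase genes. It stood at 9.89 CPM ± 0.258 in WT and 9.10 CPM ± 0.787 in KO (SD, n = 3 each), with a log2 fold of -0.12 (SE 0.093). Ambra1, a regulator that binds Beclin 1, had a log2 fold of -0.013 (SE 0.046). Merged exons of Becn1 share 43.9% of their bases with Cntd1 on the opposite strand, and those of Uvrag share 17.6% with Gm45187. Without a known strand setting for the counting, reads from such pairs cannot be told apart.

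ATG2A and ATG9A supply lipid to the growing membrane, and WIPI proteins read PI3P on it. Wipi2, the WIPI protein that recruits the conjugation machinery, was abundant at 94.3 CPM ± 3.50 (WT) and 90.6 CPM ± 6.93 (KO; SD, n = 3 each), with a log2 fold of -0.058. Its relative Wipi1 was near the lower end of what was tested, with 18, 34 and 32 counts (WT) and 14, 15 and 23 counts (KO). In normalised terms these were 0.401, 0.744 and 0.691 CPM against 0.293, 0.341 and 0.553 CPM, so WT replicate 1 lay among the KO libraries. The log2 fold of -0.64 (SE 0.35) was the furthest from 0 of the 35 genes and the least precise (edgeR adjusted p = 0.71). Its log2 fold was -0.86 without WT replicate 1 (unadjusted p = 0.037) and -0.95 without KO replicate 6 (unadjusted p = 0.042). The edgeR adjusted p was 0.29 and 0.94 in those fits. There 14.9% and 4.68% of all tested genes were at an unadjusted edgeR p under 0.05, against 2 and 1 of the 35.

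Atg9a and Atg2a shared the libraries at their ends, though the order of the lowest ones differed. Atg9a ran from 10.5 to 12.3 CPM (WT) and from 11.2 to 15.3 CPM (KO), with a log2 fold of 0.17 (SE 0.13) that was 0.050 without KO replicate 5, 0.097 without WT replicate 1 and 0.28 without KO replicate 4. Atg2a ran from 73.8 to 81.9 CPM (WT) and from 73.4 to 92.2 CPM (KO), with a log2 fold of 0.078 (SE 0.087) that was 0.15 without KO replicate 4, 0.043 without WT replicate 1, 0.12 without WT replicate 3 and -0.014 without KO replicate 5. For both, WT replicate 1 and KO replicate 4 were the lowest libraries and KO replicate 5 the highest. Merged exons of Atg9a share 31.8% of their bases with Gm29253 on the same strand, so its read assignment is uncertain.

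The conjugation genes had estimates close to 0. ATG7 activates ATG12 and ATG8 proteins, ATG10 and ATG3 transfer them, ATG4B trims ATG8 proteins, and the ATG12-ATG5 conjugate with ATG16L1 places them on the membrane. All 7 log2 folds lay between -0.043 and 0.049. Atg16l1 had the smallest p, at 69.9, 71.7 and 71.6 CPM (WT) and 68.3, 68.8 and 69.96 CPM (KO). The highest KO library reached the lowest WT library, and the log2 fold was -0.043 (SE 0.042; edgeR adjusted p = 0.81). Atg4b varied least of the group, from 51.4 to 53.7 CPM over the 6 libraries.

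Atg12 varied more. It stood at 29.7, 38.7 and 37.1 CPM (WT) and 30.9, 37.96 and 34.8 CPM (KO), with WT replicate 1 and KO replicate 4 below the other 4 libraries. Its log2 fold was -0.027 (SE 0.12; edgeR adjusted p = 0.96). Atg10 was the lowest of the conjugation genes at 3.40 CPM ± 0.330 (WT) and 3.33 CPM ± 0.194 (KO; SD, n = 3 each), with a log2 fold of -0.032. Atg3 (log2 fold 0.034), Atg5 (0.049) and Atg7 (0.030) overlapped between the groups.

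E-box letters stood in the promoter windows of several of these genes, and the sequences are shown because TFEB and TFE3 bind such sites. Promoter windows of 250 bases before to 50 after a RefSeq gene start (GRCm38.p6, the mm10 assembly) were found for 29 of the 35 genes. The motif searched was CACGTG, which reads the same on both strands. It was present for 5 of the 29 genes (Atg3, Atg5, Atg7, Atg14 and Lamp1), or 17.2%, beside 8.09% of all 27025 genes with a window. Those 27025 include genes that were not tested here, while all 35 members were tested. The longer palindrome TCACGTGA, which contains CACGTG, was present for 1 gene, Atg3, or 3.45%, beside 1.12% of all genes. In the lines below, capitals mark CACGTG, both sequences are on the plus strand, and each ends before the annotated gene start.
Lamp1, chr8:13159081-13159160, 80 bases: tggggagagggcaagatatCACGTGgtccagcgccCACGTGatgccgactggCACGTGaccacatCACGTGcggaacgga
Atg3, chr16:45158724-45158768, 45 bases: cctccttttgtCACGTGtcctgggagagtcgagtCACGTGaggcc
The Lamp1 window holds the motif 4 times, which 6 of the 27025 genes reach. Such a match is a description of the letters and says nothing about binding in these cells.

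None of these 5 genes was called different between the groups by edgeR or DESeq2. Atg3 stood at 41.4, 43.5 and 41.4 CPM (WT) and 44.8, 41.3 and 43.2 CPM (KO). The Atg3 groups overlapped, and its fold had a 95% interval from 0.939 to 1.12. For Atg5, Atg7 and Atg14 the intervals ran from 0.949 to 1.13, from 0.934 to 1.12 and from 0.792 to 1.07.

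ATG8 proteins are the ubiquitin-like tags of the autophagosome, in an LC3 and a GABARAP branch. Gabarap was the leading transcript of the 5 genes per kilobase, with 56.0% ± 1.11 of their length-scaled counts in the WT libraries and 56.2% ± 1.01 in the KO libraries (SD, n = 3 each). Gabarapl1 took 21.3% ± 1.10 and 20.6% ± 1.41, and Gabarapl2 12.1% ± 0.341 and 12.6% ± 0.346. Map1lc3b took 8.44% ± 0.154 and 8.64% ± 0.487, and Map1lc3a 2.05% ± 0.0259 and 1.97% ± 0.530. The makeup overlapped between the groups for Gabarap, Gabarapl1, Gabarapl2, Map1lc3b and Map1lc3a. The place of Map1lc3b depended on the length used, because its merged exons span 7517 bases and its longest principal transcript 2532 bases. With principal transcripts Map1lc3b took 17.4% (WT) and 17.7% (KO) and came second, ahead of Gabarapl1 at 16.4% and 15.8%, and Gabarap still led at 53.0% in both groups.

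**Figure D3:**
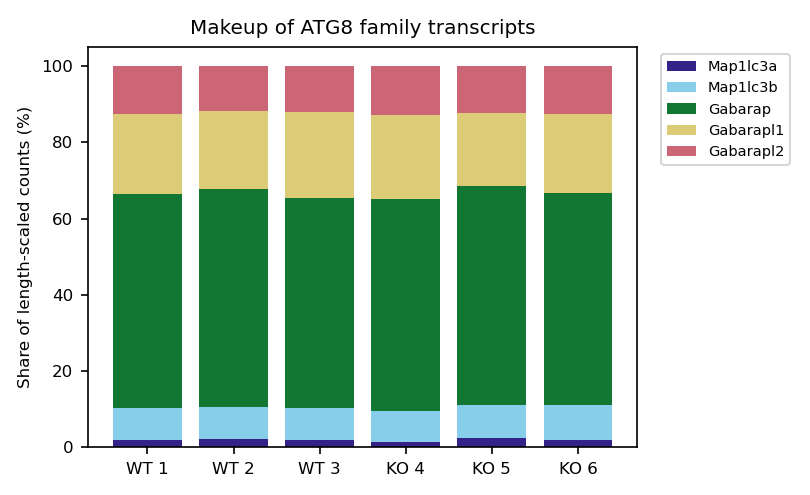
Share (%) of each ATG8 family gene in the family's counts per kilobase of merged exons, 1 bar per library. Gabarap takes 54.9% to 57.4% in every library, and Map1lc3a takes 1.41% to 2.46%.

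Map1lc3b, which encodes the LC3 protein most used as an autophagosome marker, stood at 49.1, 53.1 and 52.3 CPM (WT) and 47.4, 55.7 and 52.9 CPM (KO). The WT libraries lay inside the KO range, with a log2 fold of 0.014 (SE 0.070; edgeR adjusted p = 0.97). Gabarapl1 had the smallest p of the family, at 33.2, 33.6 and 37.8 CPM (WT) and 34.5, 32.6 and 32.3 CPM (KO). WT replicate 3 was above the other 5 libraries, and the log2 fold was -0.073 (SE 0.068; edgeR adjusted p = 0.80). Without WT replicate 3 it was -0.011. Its merged exons share 28.3% of their bases with 1700101I11Rik on the opposite strand. Gabarap (log2 fold -0.014) and Gabarapl2 (0.029) differed by less than their SEs of 0.061 and 0.059. Map1lc3a rested on 62 to 108 counts per library and ranged most widely within the KO libraries, from 1.30 CPM in replicate 4 to 2.45 CPM in replicate 5.

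Among the cargo receptors, Sqstm1 encodes p62, which carries ubiquitinated protein into autophagosomes and is itself degraded there; the gene lies at chr11:50199366-50210827 (minus strand). It stood at 135.7, 190.2 and 183.3 CPM (WT) and 138.8, 162.6 and 145.2 CPM (KO). WT replicates 2 and 3 were above all KO libraries, but WT replicate 1 was the lowest of the 6, so the groups overlapped. The log2 fold was -0.19 (SE 0.13; edgeR adjusted p = 0.75). Without WT replicate 1 it was -0.33 (unadjusted p = 0.0024, edgeR adjusted p = 0.10), the lowest adjusted p of any of the 35 genes in any fit that was run. It was -0.099 without WT replicate 2 (unadjusted p = 0.50) and -0.13 without WT replicate 3 (unadjusted p = 0.42). Without WT replicate 1, 14.9% of all tested genes were at an unadjusted p under 0.05, against 2 of the 35 (Sqstm1 and Wipi1, both lower in KO). Merged exons of Sqstm1 share 17.3% of their bases with Mrnip on the opposite strand.

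The other 3 receptors had positive estimates with all 6 libraries. Tax1bp1, a ubiquitin-binding receptor that also restrains NF-kB signalling, stood at 142.9 CPM ± 7.81 (WT) and 146.4 CPM ± 8.62 (KO; SD, n = 3 each), a log2 fold of 0.035 that turned to -0.0032 without WT replicate 1. Nbr1, which forms condensates with p62, stood at 71.6 CPM ± 4.81 and 75.3 CPM ± 6.47, a log2 fold of 0.072. Optn, encoding optineurin, was detected at only 71 to 111 counts per library and had a log2 fold of 0.20 (SE 0.18; edgeR adjusted p = 0.80). KO replicate 4 was its highest library and WT replicate 1 its lowest, and the log2 fold ran from 0.080 without KO replicate 4 to 0.34 without KO replicate 5.

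Tfeb encodes a transcription factor that drives lysosomal genes. It stood at 16.8, 13.3 and 13.5 CPM (WT) and 17.5, 13.7 and 16.2 CPM (KO). WT replicate 1 and KO replicate 4 were the highest libraries, and the log2 fold was 0.12 (SE 0.13; edgeR adjusted p = 0.83). Without WT replicate 1 it was 0.24 and without KO replicate 4 it was 0.042. Tfe3, its X-linked relative, stood at 52.4, 49.5 and 49.8 CPM (WT) and 52.97, 51.4 and 45.0 CPM (KO). Here too WT replicate 1 and KO replicate 4 were highest, and KO replicate 6 was lowest (log2 fold -0.022, SE 0.070; edgeR adjusted p = 0.95). These are transcript levels, while both factors are regulated largely through their place in the cell, which RNA counts do not show.

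Of the lysosomal membrane genes, Lamp1 was both abundant and even between libraries. Lamp1 encodes a major glycoprotein of the lysosomal membrane that also reaches the surface of degranulating CD8 cells, and the gene lies at chr8:13159161-13175338 (plus strand), directly after the promoter stretch shown with Atg3. It stood at 154.3, 159.3 and 159.4 CPM (WT) and 157.5, 157.2 and 156.1 CPM (KO). All KO libraries lay inside the WT range, and the fold had a 95% interval from 0.935 to 1.06 (log2 fold -0.0068, edgeR adjusted p = 0.98). The SD of its log2 level over the 6 libraries was 0.018, the smallest of the 35 genes, and 0.289% of tested genes at 10 CPM or more varied as little or less.

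Lamp2, an X-linked gene whose product is needed for fusion and for chaperone-mediated autophagy, stood at 37.8, 39.3 and 38.4 CPM (WT) and 38.6, 39.4 and 42.2 CPM (KO). KO replicate 6 was the highest library, and the log2 fold was 0.058 (SE 0.054; edgeR adjusted p = 0.80), falling to 0.020 without it. Both groups mixed libraries with high Xist and low Y-linked counts and the reverse, 3 of each in all. High Xist was seen in WT replicates 1 and 3 and KO replicate 6, so the sexes were not balanced between the groups. Lamp2 averaged 39.5 CPM ± 2.39 in the 3 with high Xist and 39.1 CPM ± 0.397 in the 3 others, and Tfe3 49.1 CPM ± 3.77 and 51.3 CPM ± 1.76 (SD). Laptm5, a lysosomal protein that lowers surface T cell receptor, was the most abundant of the 35 in CPM, at 319.1 ± 14.4 (WT) and 311.1 ± 25.0 (KO; SD, n = 3 each), a log2 fold of -0.037.

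**Figure D4:**
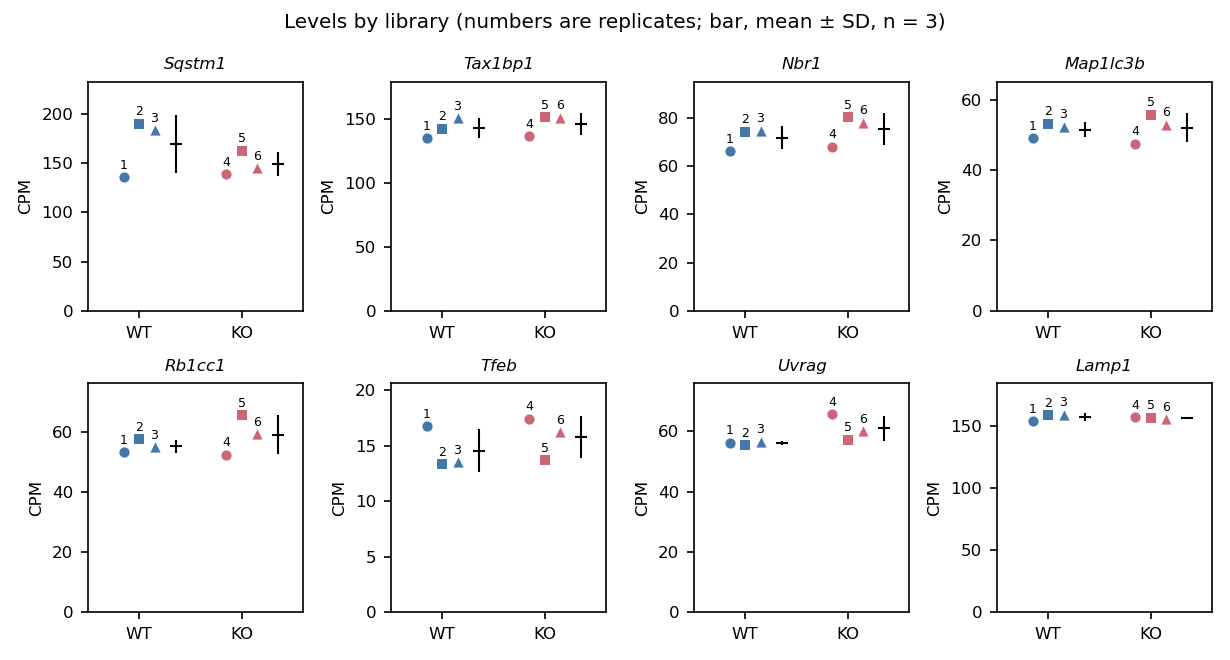
Normalised CPM of 8 genes by library, numbered by replicate, with mean ± SD (n = 3) at the right of each group; axes start at 0. Sqstm1, Tax1bp1, Nbr1, Map1lc3b and Rb1cc1 are lowest in WT replicate 1 and KO replicate 4, Tfeb is highest there, and Lamp1 stays between 154.3 and 159.4 CPM.

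Several genes had their extremes in the same libraries of both groups. WT replicate 1 and KO replicate 4 together were the lowest libraries for 10 of the 35 genes, or 28.6%, beside 15.7% of all tested genes. These 10 were Rb1cc1, Atg2a, Atg9a, Atg10, Atg12, Map1lc3a, Map1lc3b, Sqstm1, Tax1bp1 and Nbr1, so 3 of the 4 cargo receptors were among them. The same libraries were together the highest for 4 genes, Atg101, Atg5, Tfeb and Tfe3, or 11.4%, beside 17.1% of all tested genes. This pattern was chosen after the values were seen and has no test. Mki67, a marker of cycling cells also named after its values were seen, stood at 568.0 CPM in WT replicate 1 and 552.4 CPM in KO replicate 4. These were its highest libraries, but KO replicates 5 and 6 were not far below, at 484.0 and 519.4 CPM. WT replicates 2 and 3 were lower, at 360.2 and 351.5 CPM. Its part in the pattern was not tested. KO replicate 5 was the highest library for 14 of the 35 genes, beside 18.9% of all tested genes. By role these were 3 of 4 ULK complex genes, 4 of 5 ATG8 genes and 3 of 4 membrane supply and WIPI genes. They also included 2 of 4 cargo receptors, 1 of 7 conjugation genes and 1 of 3 lysosomal membrane genes. It was highest for 0 of 6 class III PI3 kinase genes and 0 of 2 transcription factor genes.

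Wider lists of autophagy and lysosome genes gave the same count of 0 calls in edgeR. Of 119 further genes 118 had a row and 115 were tested, and the unadjusted edgeR p was under 0.05 for 6 with KO higher and 2 with KO lower, beside 3.82% and 3.44% of all tested genes. Groups did not overlap for 10 of the 115 with KO higher and 6 with KO lower, beside 6.68% and 6.07% of all tested genes. DESeq2 called 2, beside 0.599% of all tested genes. Both are lysosomal enzymes and they went in opposite directions. Lipa, the lysosomal acid lipase, stood at 23.5, 21.5 and 22.0 CPM (WT) and 26.4, 28.1 and 30.3 CPM (KO), with every KO library above every WT library. Its log2 fold was 0.34 (SE 0.073; edgeR adjusted p = 0.53; DESeq2 adjusted p = 0.040). Scpep1, a serine carboxypeptidase, stood at 77.3, 88.0 and 64.7 CPM (WT) and 58.1, 53.3 and 41.9 CPM (KO), with every KO library lower. Its log2 fold was -0.58 (SE 0.15; edgeR adjusted p = 0.60; DESeq2 adjusted p = 0.023).

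The lists differed in how their estimates were divided. Of 26 lysosomal hydrolases and activators other than cathepsins, 20 had positive estimates and the median log2 fold was 0.094. With 1 library left out, 18 to 21 of them were positive. At an unadjusted p under 0.05, KO was higher for 2 of them and lower for 1, beside 3.82% and 3.44% of all tested genes. Positive estimates made up 52.4% of all tested genes, and the list medians stand beside 0.0071 for all tested genes. Besides Lipa and Scpep1, the fucosidase gene Fuca1 had the smallest p (log2 fold 0.16, SE 0.052; edgeR adjusted p = 0.63). Of 16 lysosomal membrane and transport genes, 13 had positive estimates, with a median of 0.11. With 1 library left out, 11 to 15 of them were positive. At an unadjusted p under 0.05, KO was higher for 3 of the 16, beside 3.82% of all tested genes. These were the endolysosomal cation channel genes Tpcn2 (log2 fold 0.25, SE 0.085; edgeR adjusted p = 0.63) and Tpcn1 (0.18, SE 0.068; edgeR adjusted p = 0.67), and the chloride transporter gene Clcn7 (0.16, SE 0.065; edgeR adjusted p = 0.68). Macrophages are rich in lysosomes, and the macrophage and monocyte markers summed to 16.5, 8.86 and 15.7 CPM in KO replicates 4 to 6 and 8.84, 10.5 and 6.39 CPM in WT replicates 1 to 3. Their part in these values was not tested, and in bulk RNA fewer cells of a type and less RNA per cell cannot be told apart.

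The V-ATPase is the proton pump that acidifies the lysosome. Of 16 V-ATPase genes, 14 had negative estimates, with a median of -0.043, beside 47.6% of all tested genes below 0. Of these, 1, the regulatory subunit gene Atp6v1h, was lower at an unadjusted p under 0.05, beside 3.44% of all tested genes. It stood at 73.0, 71.2 and 74.3 CPM (WT) and 70.5, 61.3 and 64.9 CPM (KO), a log2 fold of -0.15 (SE 0.061; edgeR adjusted p = 0.68). Next by p were the subunit genes Atp6v1g1 (log2 fold -0.13) and Atp6v0b (-0.15). The number of negative estimates was 11 with sex as a term in the fit, and 11 without WT replicate 3 or without KO replicate 6.

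The remaining lists were divided about evenly. Of 23 other autophagy genes 9 were positive and 14 negative, with a median of -0.015. The smallest p values there belonged to Atg16l2 (log2 fold 0.15, SE 0.062; edgeR adjusted p = 0.68), Tecpr1 (0.29) and Atg9b (-0.20). Of 14 selective receptors and mitophagy genes 8 were positive and 6 negative, led by Fundc1 (0.14), Calcoco1 (0.23) and the hypoxia-induced mitophagy receptor gene Bnip3 (-0.49, SE 0.40; edgeR adjusted p = 0.79). Of 20 genes that regulate TFEB, 9 were positive and 11 negative, led by Foxo1 (-0.095) and the calcineurin subunit genes Ppp3ca (0.16) and Ppp3r1 (0.13). The lowest edgeR adjusted p among the 115 wider genes was that of Lipa.

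**Figure D5:**
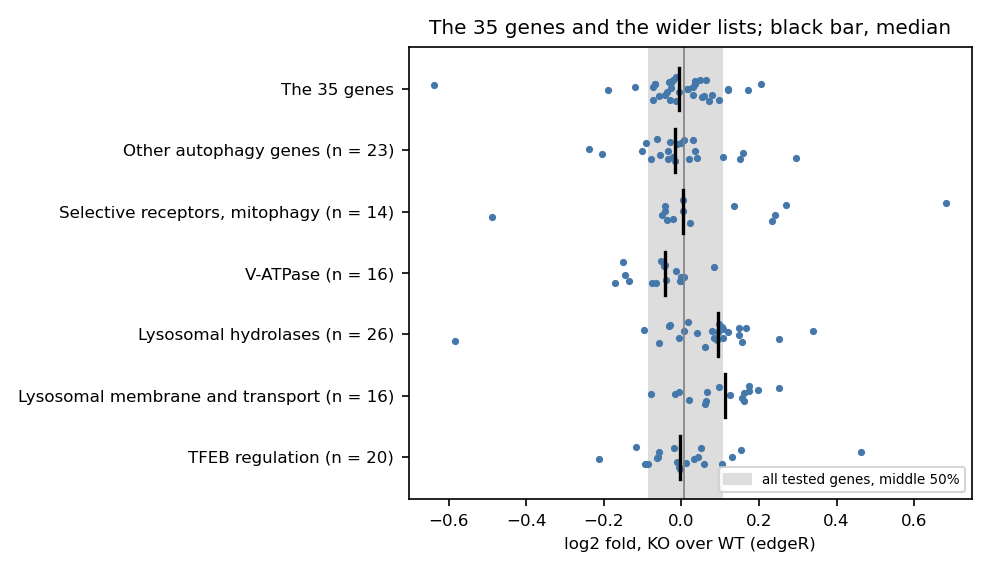
Log2 fold, KO over WT, of each gene (points) in the 35 genes and in 6 wider lists, with the list median as a black bar; the grey band holds the middle 50% of all tested genes and the grey line their median. The medians of the hydrolase (0.094) and membrane transport (0.11) lists lie just inside and just past the upper edge of the band at 0.106, and the V-ATPase median (-0.043) lies inside it.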

How the data were processed

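The values are raw read counts for 49492 gene symbols in 6 libraries, as the authors deposited them in a single table. The submitters' processing notes list HTSeq 0.9.1, DESeq2 and the mm10 build, without saying which step each served. The aligner, annotation, strand setting and handling of multiply mapped reads were not given in the sources used here, so reads of similar or overlapping genes may be misassigned.

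The edgeR package (4.0.16, under R 4.3.3) fitted all genes after filterByExpr, with TMM scaling and a robust quasi-likelihood test, and p-values were adjusted by Benjamini-Hochberg. A log2 fold is KO over WT, and its SE comes from the fold and the F statistic. Positions and exon lengths come from GENCODE M21 (GRCm38) by symbol, promoters from RefSeq. Of the wider genes, Retreg1 was matched as Fam134b, and Map1lc3b2 was not analysed here. On simulated counts over 14954 genes, 100 genes were changed 2-fold and 100 were changed 4-fold. EdgeR called 84.0% of 2-fold and 96.0% of 4-fold changes and made 15 false calls. With the real counts it called 1 of 15186 genes, and many true changes make the adjusted p cutoff easier to reach. The simulated shares were not split by expression level, and changes under 2-fold were not simulated. These shares therefore do not give the chance of calling the genes followed here, such as Wipi1 with its few counts.

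Genes given in every library were, by rule, the member with the smallest p of each role, 6 genes set by name and the X-linked members; others were named after their values were seen. Members and lists were chosen with earlier results of these data known. Alternatives were other scalings and filters, DESeq2 1.42.0, limma-voom (limma 3.58.1), a sex term and each library left out.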

Additional observations from a re-analysis of the deposited data

How the results depend on the processing

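The count of 0 called genes among the 35 held in every alternative, although with at least 1 CPM in 3 libraries 34 were tested. Over all tested genes edgeR called 1 with all libraries, 10 without a low-count filter and 1 to 119 when 1 library was left out (119 without WT replicate 1, 2 without WT replicate 2), and DESeq2 called 91. Small estimates changed sign when 1 library was left out. The log2 fold then ran from -0.041 to 0.0065 for Ambra1, -0.081 to 0.050 for Atg10, -0.077 to 0.024 for Atg101, -0.13 to 0.048 for Atg12, -0.021 to 0.12 for Atg13, and -0.014 to 0.15 for Atg2a. It ran from -0.071 to 0.014 for Gabarap, -0.022 to 0.0012 for Lamp1, -0.0999 to 0.016 for Laptm5, -0.31 to 0.14 for Map1lc3a, and -0.038 to 0.076 for Map1lc3b. It ran from -0.0032 to 0.083 for Tax1bp1, -0.069 to 0.046 for Tfe3, and -0.058 to 0.055 for Ulk1. With the sex term Ambra1 was at 0.00039. Positive estimates among the 35 ran from 13 (without KO replicate 5) to 21. The share of Gabarap over all libraries was 56.1% per merged exon length, 55.9% to 56.3% with 1 library left out, 53.0% with principal transcript lengths (added after seeing the data) and 42.9% in raw counts, which leaves out length. The cause of the other changes was not tested. No paired analysis was possible because WT libraries are numbered 1 to 3 and KO libraries 4 to 6, so no number occurs in both. Depth limits Wipi1, Optn and Map1lc3a, which had 14 to 111 counts per library.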
